A study of Mus musculus with 8 samples.

Results

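The aryl hydrocarbon receptor (AHR) genes described here are 8 genes chosen by name: Ahr, Arnt, Ahrr, Tiparp, Cyp1a1, Cyp1a2, Cyp1b1 and Aldh3a1, out of 21627 protein-coding genes on chromosomes 1 to 19 and X. For each gene, every listed accessible region in the gene body and 50 kb either side was taken. The study exposed the mouse hepatoma cell line Hepa-1c1c7 for 72 h with potassium chromate, a source of hexavalent chromium, at 0.1, 0.5 or 1 µM, and mapped open chromatin by ATAC-seq, which uses the transposase Tn5 to cut and tag exposed DNA. There were 2 libraries at each treated dose and 2 libraries of untreated cells, 8 in all. No AHR ligand is named in the labels for any group.

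The data are 3 lists of regions, 1 for each treated dose, and each list is paired by name with the untreated cells. The untreated cells have no list of their own here, and the sources used here do not say whether a listed region is more open in treated than in untreated cells. With 1 list per dose there is no replicate error, so doses could not be compared against a spread and no test was made. A gene without a region is not listed, which does not show that its chromatin is closed. The lists hold 14401, 11130 and 15894 regions at 0.1, 0.5 and 1 µM. Each region carries a score from the authors, a whole number of at least 4 on an unstated scale, which is given here as its rank percentile within its own list. The depth of the libraries is unknown from these files, and the 1 µM libraries carry a different prefix in their labels from all others, which cannot be told apart from the dose. At each dose 2 of 8 liver marker genes (Apoa2 and Foxa2) had a region at most 1 kb from an end, while Alb and Hnf4a had none there. Of 5 markers of other cell types, 1, 0 and 0 had such a region in order of dose, Snap25 at 0.1 µM. Over all protein-coding genes the shares with such a region were 19.5%, 18.7% and 23.0%. Against such shares, counts among so few markers say little about cell identity.

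AHR is a transcription factor of the bHLH-PAS family that waits in the cytosol with chaperones until a ligand binds, then enters the nucleus and pairs with ARNT on DNA elements built around the letters GCGTG. The pair switches on genes of xenobiotic metabolism, above all the CYP1 monooxygenases, and also its own brakes, the repressor AHRR and the ADP-ribosyltransferase TIPARP. Hepa-1c1c7 cells are widely used to study this response because their Cyp1a1 gene is strongly inducible.

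The promoters of 4 genes are shown to set genes with and without a listed region side by side: Arnt, whose promoter lies under a listed region at 0.5 and 1 µM, Cyp1b1, whose listed region lies just upstream of the stretch, and Cyp1a1 and Cyp1a2, whose neighbourhood holds no region in any list. Each is the 250 bases before the transcription start, 5′ to 3′ on the gene's strand, from RefSeq (GRCm38.p6, which is mm10). They lie at chr3:95434140-95434389 on the plus strand (Arnt), chr17:79715062-79715311 on the minus strand (Cyp1b1), chr9:57697363-57697612 on the plus strand (Cyp1a1) and chr9:57683656-57683905 on the minus strand (Cyp1a2). Capitals mark GCGTG, or CACGC where it lies on the other strand.
Arnt: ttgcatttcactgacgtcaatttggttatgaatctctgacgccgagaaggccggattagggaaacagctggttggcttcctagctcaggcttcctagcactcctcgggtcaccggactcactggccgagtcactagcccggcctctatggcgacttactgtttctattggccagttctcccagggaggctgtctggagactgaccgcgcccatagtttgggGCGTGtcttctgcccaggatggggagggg
Cyp1b1: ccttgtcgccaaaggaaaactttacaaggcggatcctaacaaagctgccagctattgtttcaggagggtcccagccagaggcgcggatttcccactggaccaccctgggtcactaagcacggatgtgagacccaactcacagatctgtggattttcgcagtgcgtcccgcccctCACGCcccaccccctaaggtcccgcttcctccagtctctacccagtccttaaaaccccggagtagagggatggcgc
Cyp1a1: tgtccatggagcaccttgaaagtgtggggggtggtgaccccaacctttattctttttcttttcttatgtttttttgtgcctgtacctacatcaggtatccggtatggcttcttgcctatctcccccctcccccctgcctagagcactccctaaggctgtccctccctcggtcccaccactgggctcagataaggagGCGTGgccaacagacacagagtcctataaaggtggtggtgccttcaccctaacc
Cyp1a2: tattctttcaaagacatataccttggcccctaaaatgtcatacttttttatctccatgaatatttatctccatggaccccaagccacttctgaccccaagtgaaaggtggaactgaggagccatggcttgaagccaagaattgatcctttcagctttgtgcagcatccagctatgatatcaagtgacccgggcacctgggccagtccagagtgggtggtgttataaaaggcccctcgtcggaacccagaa

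GCGTG, searched on both strands, occurred in 5 of the 6 members with a promoter in the table, against 28.3% of 32585 promoters of the same length. Arnt, Tiparp, Cyp1a1 and Cyp1b1 had 1 match each, Ahrr had 3 and Cyp1a2 had none. The match of Arnt began 29 bases, that of Cyp1a1 54 bases and that of Cyp1b1 76 bases before the start. The members' stretches held 47.2% to 75.2% G and C, the lowest in Cyp1a2 and the highest in Tiparp, against a median of 52.4% over all promoters. TATAAA, the TATA box, was present in Cyp1a1 and Cyp1a2 only among the 6 (12.4% of all promoters), beginning 30 and 29 bases before the start. TGACNNNGC, the letters of the antioxidant response element, occurred 2 times in Arnt and in no other member (10.2% of all promoters). The E-box CACGTG and the AP-1 element TGANTCA, which can overlap TGACNNNGC, had no match in the 6 stretches (6.06% and 6.78% of all promoters). These matches describe letters and do not show binding. Sequence farther upstream than these 250 bases was not searched, so elements there would be missed. Ahr and Aldh3a1 were not matched in the promoter table.

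With 50 kb either side, 2 of 8 members had a listed region at 0.1 µM, where 47.0% of all protein-coding genes did, 4 of 8 at 0.5 µM (46.4% of all genes) and 4 of 8 at 1 µM (54.7%). The members with a region were Ahrr and Aldh3a1 in every list, and Arnt and Cyp1b1 at 0.5 and 1 µM. Ahr, Tiparp, Cyp1a1 and Cyp1a2 had none in any list. With 8 genes these counts lie near the background at 0.5 and 1 µM, and the members' windows, of 107 to 181 kb, span a range shared by 12564 genes, of which 50.6%, 50.9% and 59.2% had a region. Per Mb of the members' merged windows (0.953 Mb), there were 3.15, 6.30 and 6.30 regions in order of dose, against 6.99, 5.65 and 7.99 in the merged windows of all protein-coding genes. Without chromosome 15, which holds no member, the latter were 6.49, 5.14 and 7.37.

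**Figure D1:**
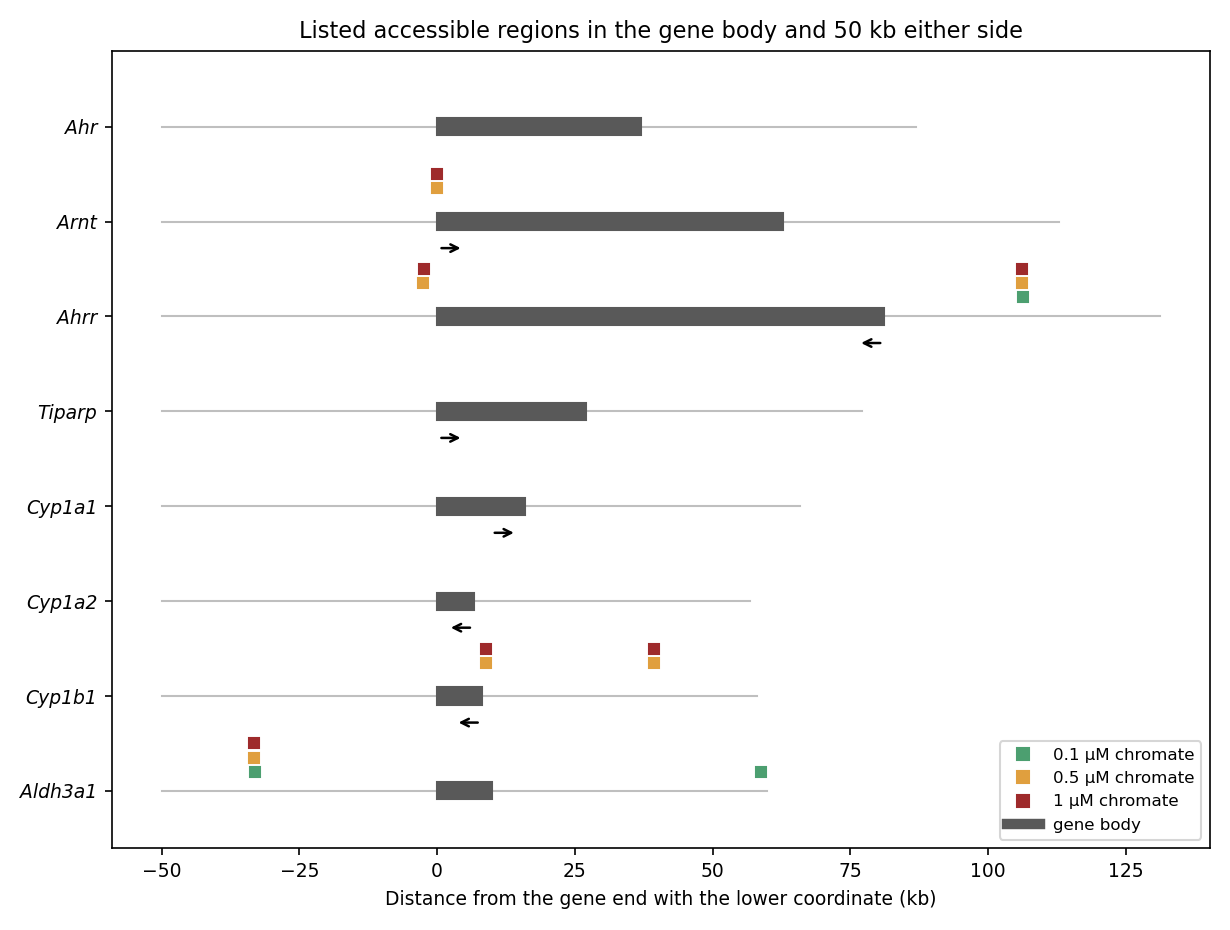
Listed regions (squares, coloured by dose) around the 8 genes, plotted by distance in kb from the gene end with the lower coordinate. Bars are gene bodies, grey lines the 50 kb either side and arrows the direction of transcription where the promoter table gives it. Squares are absent from Ahr, Tiparp, Cyp1a1 and Cyp1a2, and at 0.1 µM they lie only near Ahrr and Aldh3a1.

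At the genes' own ends the counts were 0, 2 and 2 of 8 at 0.1, 0.5 and 1 µM (region within 1 kb of either end), against 19.5%, 18.7% and 23.0% of all protein-coding genes. The 2 genes were Arnt and Cyp1b1 both times. Inside the gene body the counts were 0, 1 and 1 of 8 (24.6%, 22.5% and 28.3% of all genes), the 1 gene being Arnt. In both genes this was the end at which transcription starts.

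Ahr encodes the receptor itself (chromosome 12, 35497979 to 35534989). Its nearest listed region lay 214 kb away at 0.1 µM and 214 kb away at 0.5 µM, on the lower-coordinate side, at sites 136 and 137 kb from the nearest gene end, that of Snx13. At 1 µM the nearest region lay 58.1 kb above the gene, just outside the 50 kb window, at the 31.6 percentile of its list. Over all protein-coding genes the median distance was 61.9, 63.8 and 36.4 kb in order of dose, so Ahr lay farther from a region than the median gene in each list.

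Arnt encodes the obligate partner of AHR, which also pairs with hypoxia-inducible factors (chromosome 3, 95434367 to 95497240, plus strand). The 0.5 µM list held a region of 276 bp across its transcription start at chr3:95434196-95434471, with a score of 6 at the 13.8 percentile. The 1 µM list held one of 447 bp at chr3:95434146-95434592, with a score of 27 at the 80.3 percentile. Both regions thus sit on the promoter printed above, and they end 62.8 and 62.6 kb short of the other end of the gene. Of the 300 bases from 250 before to 50 after the start, the 0.5 µM region covered 81.3% and the 1 µM region 98.0%, and promoters touched by a region made up 12.2% and 15.4% of all promoters in those lists. At 0.1 µM the nearest region lay 91.4 kb above Arnt, at an end of Golph3l. The region names skip 2 numbers in the 0.634 Mb stretch that holds Arnt at 0.1 µM. Up to 2 regions of that stretch may thus have been taken out at an unknown step, and whether either lay at Arnt is unknown.

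Cyp1b1 encodes a CYP1 enzyme that activates polycyclic hydrocarbons and hydroxylates oestrogens (chromosome 17, 79706940 to 79715061, minus strand). A region upstream of its start was listed at 0.5 µM (chr17:79715705-79716008, 304 bp, score 12, 59.5 percentile) and at 1 µM (chr17:79715656-79716086, 431 bp, score 26, 79.2 percentile). The edge nearest to the gene lay 644 bp upstream of the start at 0.5 µM and 595 bp upstream at 1 µM, and the distance to the other end of the gene was 8.77 and 8.72 kb. The regions therefore lie upstream of the promoter stretch printed above and do not touch it. A region farther upstream was listed at the same doses, 31.03 kb from the start at 0.5 µM (chr17:79746088-79746432, 59.5 percentile) and 31.06 kb at 1 µM (chr17:79746123-79746509, 57.4 percentile), and Cyp1b1 is the protein-coding gene with the nearest end. The nearest transcription start in the promoter table was that of Gm33055, at 8.71 and 8.74 kb, so this region is not tied to Cyp1b1 by position alone. At 0.1 µM no region lay nearer than 347 kb, where an end of Hnrnpll was listed, and no number is skipped in the region names across the stretch that holds Cyp1b1.

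Cyp1a1 and Cyp1a2 encode the most strongly AHR-driven enzyme of the family and its liver-enriched relative. They lie head to head on chromosome 9 (57687928 to 57703824 and 57676937 to 57683655) and share most of their windows, so they are not independent. The nearest listed region lay 3101 kb from Cyp1a1 and 3090 kb from Cyp1a2 at 0.1 µM, 612 and 601 kb at 0.5 µM, and 612 and 601 kb at 1 µM. At 0.1 µM 98.6% of all protein-coding genes were as near to a region as Cyp1a1 or nearer, and 87.3% and 91.2% at 0.5 and 1 µM. The region at 0.5 and 1 µM was the same site inside Sin3a (chr9:57075930-57076253 and chr9:57075883-57076226), which encodes a corepressor scaffold, with low ranks of 25.0 and 6.05 percentile. The gene table starts Cyp1a1 9685 bp before the transcription start of the promoter table, and distances are to the longer gene model.

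The gap around these genes was long. Chromosome 9 as a whole held 329 of the 14401 regions at 0.1 µM, 209 of 11130 at 0.5 µM and 385 of 15894 at 1 µM. At 0.1 µM Cyp1a1 and Cyp1a2 lay in a stretch of 13.3 Mb with no listed region (chromosome 9, 54586577 to 67840366), the longest of 14381 such stretches between neighbouring regions, whose median was 44.2 kb. At 0.5 µM the stretch was 12.4 Mb (57076254 to 69442518), the third longest of 11110 and the longest on an autosome. At 1 µM it was 2.58 Mb (57076227 to 59656171), number 93 of 15874. The stretches held 162, 133 and 45 whole protein-coding genes in order of dose, and no number is skipped in the region names across any of the 3. In the 10 Mb above the Cyp1a1 start there were 0, 0 and 6 regions, and in the next 10 Mb 18, 9 and 14. In the 10 Mb below the start there were 7, 8 and 10 regions, and in the 10 Mb before those 8, 1 and 13. The absence of the CYP1A pair from the lists was thus shared with many neighbouring genes. The copy number of this stretch in the line was not tested.

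**Figure D2:**
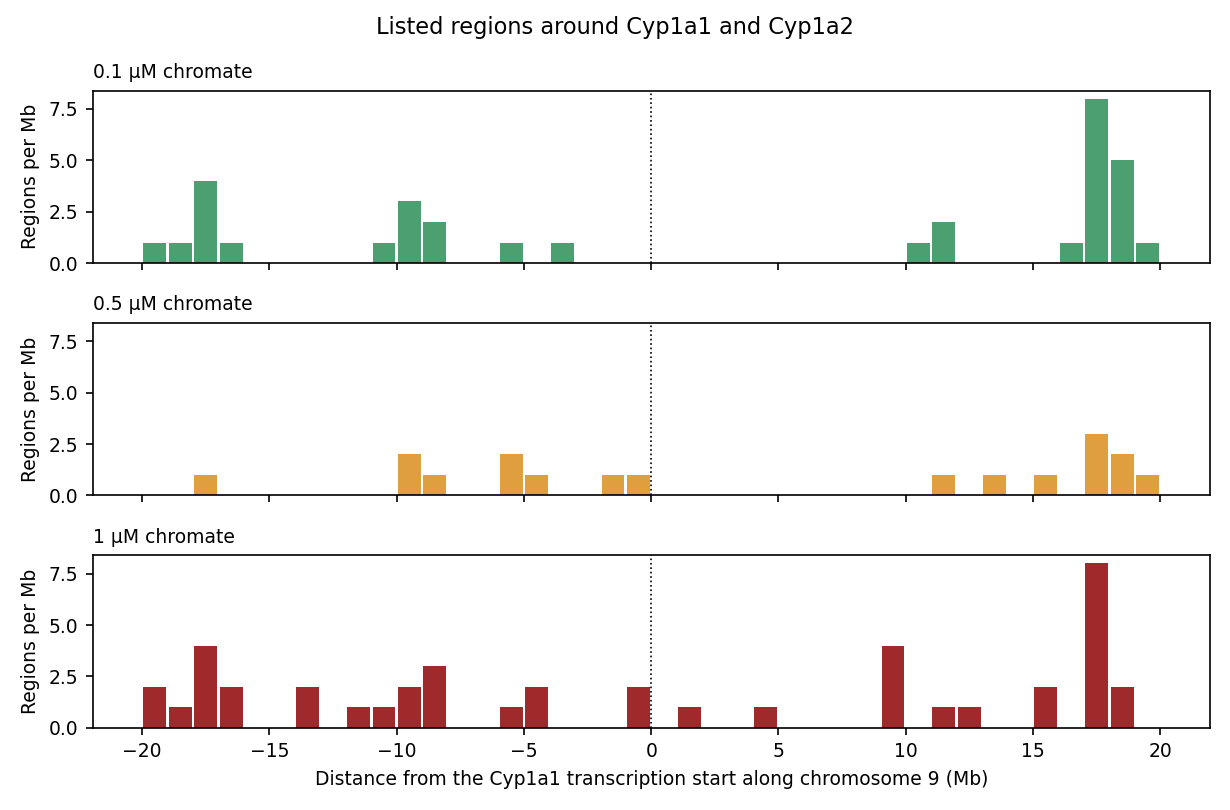
Listed regions per Mb of chromosome 9 (bars, by region midpoint), at distances of up to 20 Mb from the Cyp1a1 transcription start (dotted line), 1 panel for each dose. The 10 Mb to the right of the start hold 0 regions at 0.1 µM, 0 at 0.5 µM and 6 at 1 µM.

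Ahrr encodes the AHR repressor, which competes for ARNT (chromosome 13, 74211118 to 74292331, minus strand). Its window held regions that lie on starts of the neighbouring genes and none at its own start. A region on the start of Pdcd6, a calcium-binding protein gene, was listed at every dose, at chr13:74317172-74317763 at 0.1 µM, with scores of 49, 34 and 75 at the 94.4, 93.2 and 96.5 percentile. It lay 24.8, 24.9 and 24.6 kb above the start of Ahrr and 106 kb from its other end. A region on a start of Exoc3, an exocyst subunit gene, was listed at 0.5 µM (chr13:74208448-74208771, score 17, 75.6 percentile) and 1 µM (chr13:74208456-74208952, score 13, 51.1 percentile), 2.35 and 2.17 kb beyond the end at which Ahrr transcription stops.

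Tiparp encodes the ADP-ribosyltransferase that limits AHR signalling (chromosome 3, 65528447 to 65555518, plus strand). Its nearest region lay 136 kb away at 0.1 µM, at an end of Ssr3, 372 kb away at 0.5 µM, and 103 kb away at 1 µM, near an end of Lekr1. All 3 distances exceed the median over all genes.

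Aldh3a1 encodes an aldehyde dehydrogenase of the AHR battery (chromosome 11, 61208510 to 61218418). A region at the upper end of Usp22, a deubiquitinase gene, was listed at every dose, at chr11:61175108-61175585 at 0.1 µM, with scores of 23, 12 and 17 at the 80.1, 59.5 and 62.8 percentile. It lay 32.9, 33.1 and 33.0 kb below Aldh3a1, and 42.8, 43.0 and 43.0 kb from the gene's upper end. At 0.1 µM only, the start of its paralogue Aldh3a2 carried a region of 211 bp (chr11:61267160-61267370, score 6, 14.96 percentile), 48.7 kb above Aldh3a1 and thus just inside the window.

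**Figure D3:**
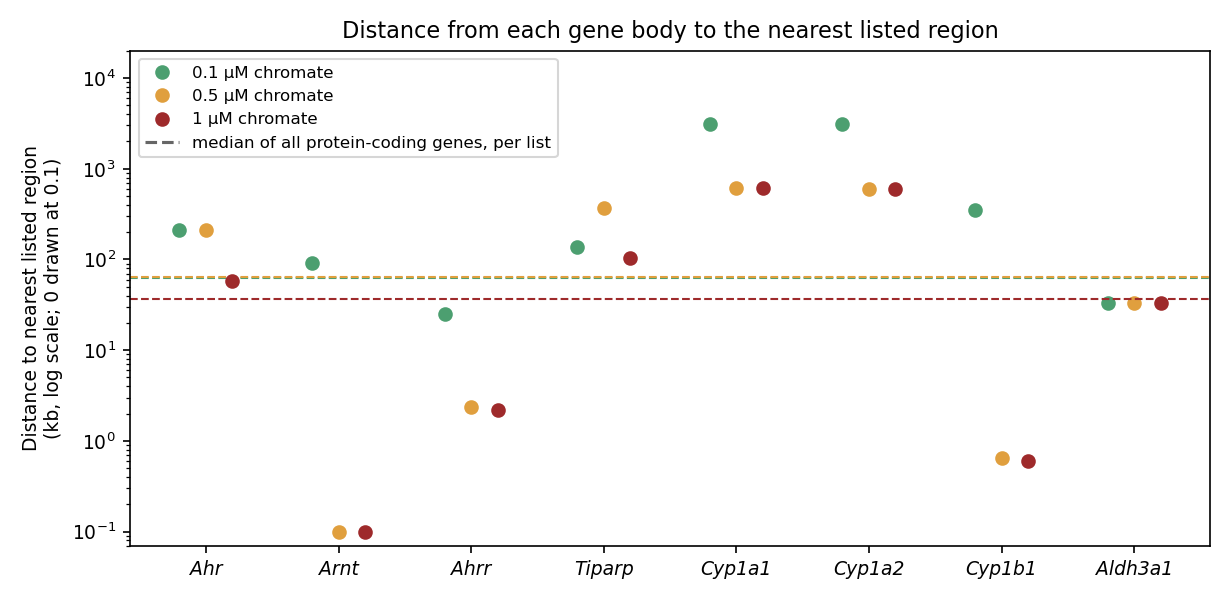
Distance in kb (log scale) from each gene body to the nearest listed region, 1 point for each dose, with a distance of 0 drawn at 0.1. Dashed lines give the median over all protein-coding genes in each list (61.9, 63.8 and 36.4 kb). Cyp1a1 and Cyp1a2 stand above all other members in each list.

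Merging the lists where regions overlapped by at least 1 bp gave 7 regions in the members' windows. Of these, 4 were listed at 0.5 and 1 µM and not at 0.1 µM (1174 of 21051 merged regions in all, or 5.58%), 2 at all 3 doses (7264 of all) and 1 at 0.1 µM alone (3159 of all). The 4 were those at Arnt, the pair in the Cyp1b1 window and the one at Exoc3. All lists share the untreated libraries, 7 regions are few, and the pair shares the Cyp1b1 window, so this is a description. At their ends, 489 protein-coding genes (2.26%) had the pattern of Arnt and Cyp1b1, a region at 0.5 and 1 µM and none at 0.1 µM. The ranks of the 4 at 0.5 µM ran from the 13.8 to the 75.6 percentile and at 1 µM from the 51.1 to the 80.3 percentile.

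**Figure D4:**
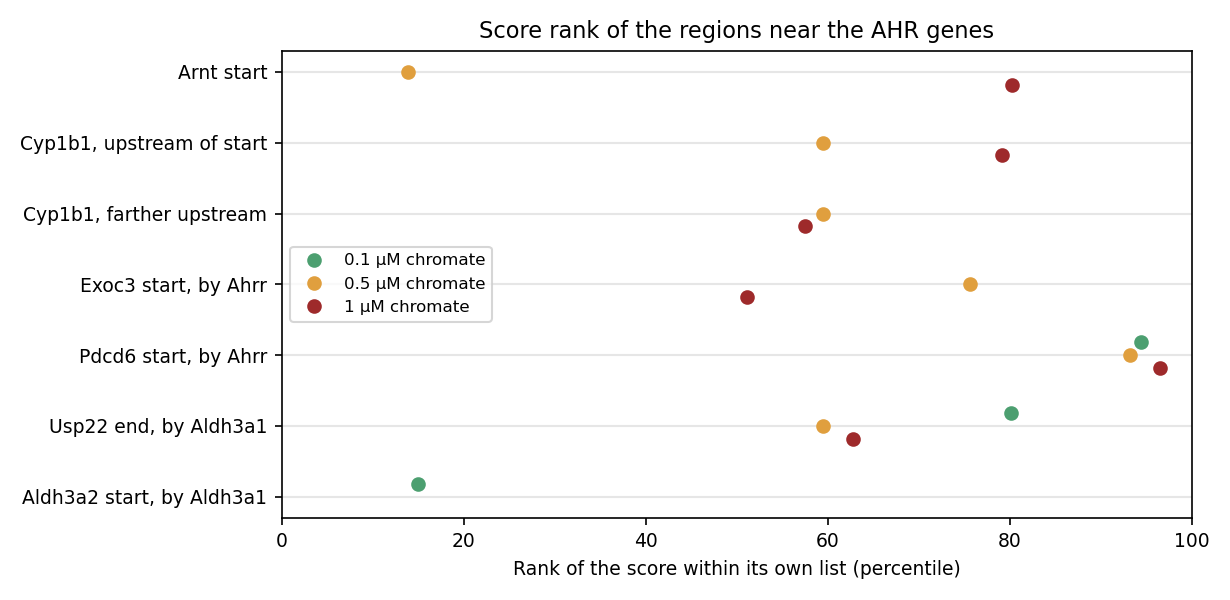
Rank of the score within its own list (percentile, 100 is the highest) for the 7 merged regions near the AHR genes, 1 point for each dose that lists the region. The region at the start of Pdcd6 lies above the 93 percentile in each list, and that at the start of Arnt lies at 13.8 at 0.5 µM and 80.3 at 1 µM.

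Other genes of the AHR pathway, 38 in 3 groups, were counted at their ends in the same way. Of 14 genes of AHR chaperones and coregulators, 4, 6 and 4 were listed at an end (within 1 kb) at 0.1, 0.5 and 1 µM (28.6%, 42.9% and 28.6%, against 19.5%, 18.7% and 23.0% of all protein-coding genes). Ptges3, the p23 cochaperone of HSP90, had one at every dose (percentiles 59.6, 2.59 and 6.05), as did Nrip1, a nuclear receptor corepressor (30.7, 83.4 and 78.1). These 2 made up 14.3% of the 14, near the 14.2% of all protein-coding genes (3069) with an end region at every dose. Hsp90aa1, an HSP90 chaperone that holds the unliganded receptor, had the same pattern as Arnt and Cyp1b1 (25.0 and 23.8 percentile at 0.5 and 1 µM), and so did the coactivator gene Ncoa3 (25.0 and 74.1). Of 14 other battery and target genes, 4, 5 and 6 had a region (28.6%, 35.7% and 42.9%, against the same shares of all genes). Those at every dose were Nqo1, a quinone reductase (22.8, 54.8 and 54.4 percentile), Nfe2l2, the gene of NRF2 (81.6, 25.0 and 81.4), the cell cycle inhibitor gene Cdkn1b (22.8, 7.67 and 54.4) and Ugt1a6b, a glucuronosyltransferase gene (44.8, 36.0 and 43.4). They made up 28.6% of the 14, against 14.2% of all protein-coding genes. Ugt1a6a had the pattern of Arnt and Cyp1b1 (42.9 and 43.4 percentile), although Ugt1a genes share an end and their regions are not independent. Of 10 bHLH-PAS relatives, 1, 1 and 1 had a region at an end (against 19.5%, 18.7% and 23.0% of all genes). These were Epas1 at 0.1 and 1 µM and Clock at 0.5 µM. With 50 kb either side, 5, 6 and 8 of the 10 had a region, against 47.0%, 46.4% and 54.7% of all genes. In that window the counts were 8, 10 and 9 of 14 chaperone and coregulator genes. For the other battery and target genes they were 7, 8 and 9 of 14.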

How the data were processed

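The authors' deposited files are 3 lists of genomic regions with a score for each region, 1 list for each treated dose. The submitters' processing notes name mm10 as the build and Bowtie2, Picard and MACS2 as tools, with no role or version. How the 2 libraries of a dose were combined, the Tn5 read shift and the scale of the deposited score were not given in the sources used here. Each file name has a q tag, which may be a cutoff, the letters BL and the words filtered and unique, none of them explained. Separate cultures are not stated in the labels.

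Starts were made 1-based and regions were set against a RefSeq gene table of GRCm38.p6 (Python 3.11.15, pandas 2.3.3). All 8 genes matched by symbol, and 6 matched the RefSeq promoter table, from which transcription starts and strand were taken. A region counted for a gene when it touched the window by at least 1 bp. Distances run from the nearest edge of the region. Ranks are percentiles of the score within a list, with ties at their mean. No test was made, because each dose has 1 list. The interval counting was checked on simulated data. All 8 genes are named, with the gene whose end is nearest to each region. Of the other pathway genes, those listed at an end at every dose or with the pattern of a member are named. The bHLH-PAS genes with a region at an end were named after their values were seen. The members and lists were chosen with earlier results of these data known.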

Additional observations from a re-analysis of the deposited data

How the results depend on the processing

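The counts rest on few genes and shift with the window. With 10 kb either side, 0 of 8 members at 0.1 µM had a region, against 31.7% of all protein-coding genes. At 0.5 and 1 µM 3 of 8 had one at each dose, against 30.2% and 36.8% of all genes. The windows then held 0, 3 and 3 regions at 0.1, 0.5 and 1 µM, and with 100 kb either side 7, 8 and 11. At 100 kb the members with a region were 3, 4 and 5 of 8, against 57.7%, 57.4% and 66.0% of all protein-coding genes. In the gene body alone 0, 1 and 1 members had a region (24.6%, 22.5% and 28.3% of all genes). At 0.5 µM the count at gene ends fell to 1 in the upper 50% of the list by score, which leaves out the region at Arnt, and to 0 in the upper 50% by width, whose limit both regions miss. The share of all genes also fell there, to 11.9% and 12.2%, against 18.7% in the whole list. The count of 0 members with a region at an end at 0.1 µM was the same with 2.5 kb, 5 kb, midpoints, and, chosen after seeing the data, transcription starts. The share of all genes at 0.1 µM was 21.9% with 2.5 kb and 24.4% with 5 kb. Against such shares, a count of 0 among 8 genes says little about the members. The 2 regions listed at all doses were also 2 under a reciprocal overlap of 50% and in the upper 50% by score or by width. No library could be left out, and no paired analysis was possible because each dose had 1 list.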

Other observations

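Cytochrome P450 genes other than the CYP1 members, a group taken by symbol after the lists were seen, were seldom listed. Of 96 such genes, 8, 5 and 7 were listed at an end (within 1 kb) at 0.1, 0.5 and 1 µM (8.33%, 5.21% and 7.29%), against 19.5%, 18.7% and 23.0% of all protein-coding genes. Many P450 genes are clustered and share neighbours, which makes them dependent, and no test was made. Those with a region at every dose were Cyp39a1, an oxysterol hydroxylase gene (88.0, 94.5 and 89.4 percentile), Cyp20a1, an orphan member (6.48, 2.59 and 74.1), Cyp2c66 (74.5, 42.9 and 76.9) and Cyp2c69 (44.8, 49.3 and 6.05). They made up 4.17% of the 96, against 14.2% of all protein-coding genes.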
